A study of Mus musculus with 44 samples.

Results

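The hippocampus is built of fields whose principal neurons can be told apart by single genes, and 6 such field markers were followed here across libraries of mouse hippocampus. They were chosen by name, as the loci of the deposited FPKM table whose symbol is Prox1, Calb1, Wfs1, Pcp4, Dkk3 or Neurod6. All 6 names were found, each on 1 of the 13218 loci of the table and each as its only symbol, and 0 were absent. All 6 passed the filter on low values, which left 13009 loci for testing.

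The libraries came from the hippocampus of C57BL/6J mice, a wild-type inbred strain, which differed in age and in a diet label. MR is read as methionine restriction, a diet low in that essential amino acid, as the series title names it, and CD as its control diet. There were 7 libraries labelled 5M-MR and 6 labelled 5M-CD from mice of 5 months, 8 labelled 15M-MR and 8 labelled 15M-CD from mice of 15 months, and 7 labelled 18M-MR and 8 labelled 18M-CD from mice of 18 months, 44 in all. The labels give neither the sex of the mice nor the length of the diet, and they do not say that each library came from a separate mouse, so that p-values measure the spread between these samples. A library is named here by its group and the number in its title, such as 15M-MR 6.

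The dentate gyrus and the fields CA1, CA2 and CA3 form the circuit through which signals from the entorhinal cortex pass. Dentate granule cells receive the first input and send mossy fibres to CA3, CA3 pyramidal cells project to CA1, and CA1 is the main exit. The markers have their own roles. Prox1 is a homeobox transcription factor that granule cells need for their identity. Calb1 encodes calbindin, a calcium buffer of granule cells and of part of the CA1 pyramidal cells, and also of some interneurons. Wfs1 encodes wolframin, a membrane protein of the endoplasmic reticulum that marks CA1. Pcp4 encodes a small calmodulin-binding peptide that is strong in CA2. Dkk3 encodes a secreted glycoprotein of the Dickkopf family found in pyramidal cells. Neurod6 is a basic helix-loop-helix (bHLH) transcription factor of pyramidal neurons. In RNA of a whole dissected piece, fewer cells of a field and less RNA per cell cannot be told apart.

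The start regions of these genes are shown as a description. RefSeq's promoter table for GRCm38.p6, which spans 250 bases before to 50 after a gene's start, held 4 of the 6 markers. Calb1 and Dkk3 had no entry. Each sequence runs 5′ to 3′ on the gene's strand, and capitals mark letters of a motif searched on both strands. Prox1 (chr1:190170778-190171077, minus strand, the first of its 2 entries), Wfs1 (chr5:36988933-36989232, minus strand), Neurod6 (chr6:55681214-55681513, minus strand) and Pcp4 (chr16:96467356-96467655, plus strand) read as follows.
Prox1: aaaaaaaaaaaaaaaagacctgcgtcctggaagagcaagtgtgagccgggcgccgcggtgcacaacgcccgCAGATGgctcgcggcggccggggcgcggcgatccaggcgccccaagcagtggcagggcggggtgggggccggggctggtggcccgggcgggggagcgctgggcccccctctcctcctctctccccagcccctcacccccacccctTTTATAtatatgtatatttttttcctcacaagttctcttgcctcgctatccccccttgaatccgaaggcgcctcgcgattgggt
Wfs1: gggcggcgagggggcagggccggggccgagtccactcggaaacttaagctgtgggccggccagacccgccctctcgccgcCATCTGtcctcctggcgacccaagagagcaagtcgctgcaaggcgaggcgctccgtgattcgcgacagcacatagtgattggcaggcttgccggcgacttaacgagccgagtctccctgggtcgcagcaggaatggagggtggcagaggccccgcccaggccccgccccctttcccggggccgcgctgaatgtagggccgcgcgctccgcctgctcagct
Neurod6: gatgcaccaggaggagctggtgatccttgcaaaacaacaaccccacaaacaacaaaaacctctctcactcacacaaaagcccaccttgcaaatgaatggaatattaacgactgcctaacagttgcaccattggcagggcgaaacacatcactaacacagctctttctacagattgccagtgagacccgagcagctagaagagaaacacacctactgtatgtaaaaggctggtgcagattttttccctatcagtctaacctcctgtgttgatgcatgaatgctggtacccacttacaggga
Pcp4: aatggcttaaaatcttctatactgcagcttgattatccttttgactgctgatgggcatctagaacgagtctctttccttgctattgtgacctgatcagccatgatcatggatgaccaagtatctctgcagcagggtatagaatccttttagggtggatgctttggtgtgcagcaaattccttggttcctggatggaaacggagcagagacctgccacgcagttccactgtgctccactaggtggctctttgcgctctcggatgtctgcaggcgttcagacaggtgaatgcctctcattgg

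CAGATG, the E-box that NeuroD factors can bind, occurred in the windows of Prox1 and Wfs1, and in 17.2% of all 32851 windows. TATAAA occurred in the window of Prox1 alone of these 4, read on the other strand, and in 13.6% of all windows. The cyclic AMP response element core TGACG was in none of the 4, against 20.8% of all. The motifs did not overlap. The second Prox1 entry, not printed above, held 0 matches to each motif, with 57.3% GC and 14 CpG pairs. The printed Prox1 and Wfs1 windows were rich in GC, at 64.3% and 70.0%, and held 25 and 30 CpG pairs. Those of Neurod6 and Pcp4 had 46.3% and 48.7% GC, with 3 and 6 CpG pairs, beside medians of 52.7% and 7 over all windows. The windows of Wfs1 and Neurod6 thus differed in GC and in CpG pairs. These matches are a description of letters only, and their part in how the markers varied was not tested.

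Per length of transcript, Pcp4 was the highest of the markers, with a mean of 166 FPKM over the 44 libraries. Neurod6 followed at 59.5 FPKM, Dkk3 at 50.6, Calb1 at 29.4, Wfs1 at 18.4 and Prox1 at 3.19. Pcp4 exceeded Neurod6 in 44 of 44 libraries, and Wfs1 exceeded Prox1 in 44 of 44. The order of Neurod6 above Dkk3 held in 26 libraries, that of Dkk3 above Calb1 in 35 and that of Calb1 above Wfs1 in 37. The inner neighbours of this order therefore overlapped from library to library.

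The spread within groups was wide, most of all for Dkk3 and Prox1. The SD of log2(FPKM + 1) around the group means was 0.95 for Dkk3 and 0.89 for Prox1, then 0.56 for Pcp4, 0.48 for Wfs1, 0.47 for Calb1 and 0.42 for Neurod6. Each was above that of 82.8% to 97.4% of the 500 loci closest in level. The 6 groups accounted for 31.5% of the variance of Calb1, 25.8% of that of Prox1, 22.9% for Neurod6, 19.1% for Wfs1, 12.9% for Dkk3 and 10.8% for Pcp4. The median over all loci was 18.7%.

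The FPKM of a library summed to 213116 to 282327, and 485 to 967 of its loci were at 0. Depth is unknown, since the values hold no read counts. Loci with no symbol took 3.30% to 12.003% of the FPKM of a library. In 6 libraries they took over 8%, namely 15M-MR 5, 15M-CD 7, 18M-MR 1, 18M-MR 2, 18M-MR 7 and 18M-CD 8, none of them from mice of 5 months. The libraries ran on 4 lanes, and groups and lanes were largely tied. All 8 of 15M-MR were on lane 4, 5M-MR was on lanes 1 and 2, and 7 of the 8 of 18M-CD were on lane 2. Marker lists of neighbouring tissue were present too. Of 12 choroid plexus markers 7 were measured, with a summed level of 12.9 to 5135 FPKM, most of it from the defining marker Ttr, at 7.72 to 4910 FPKM.

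**Figure D1:**
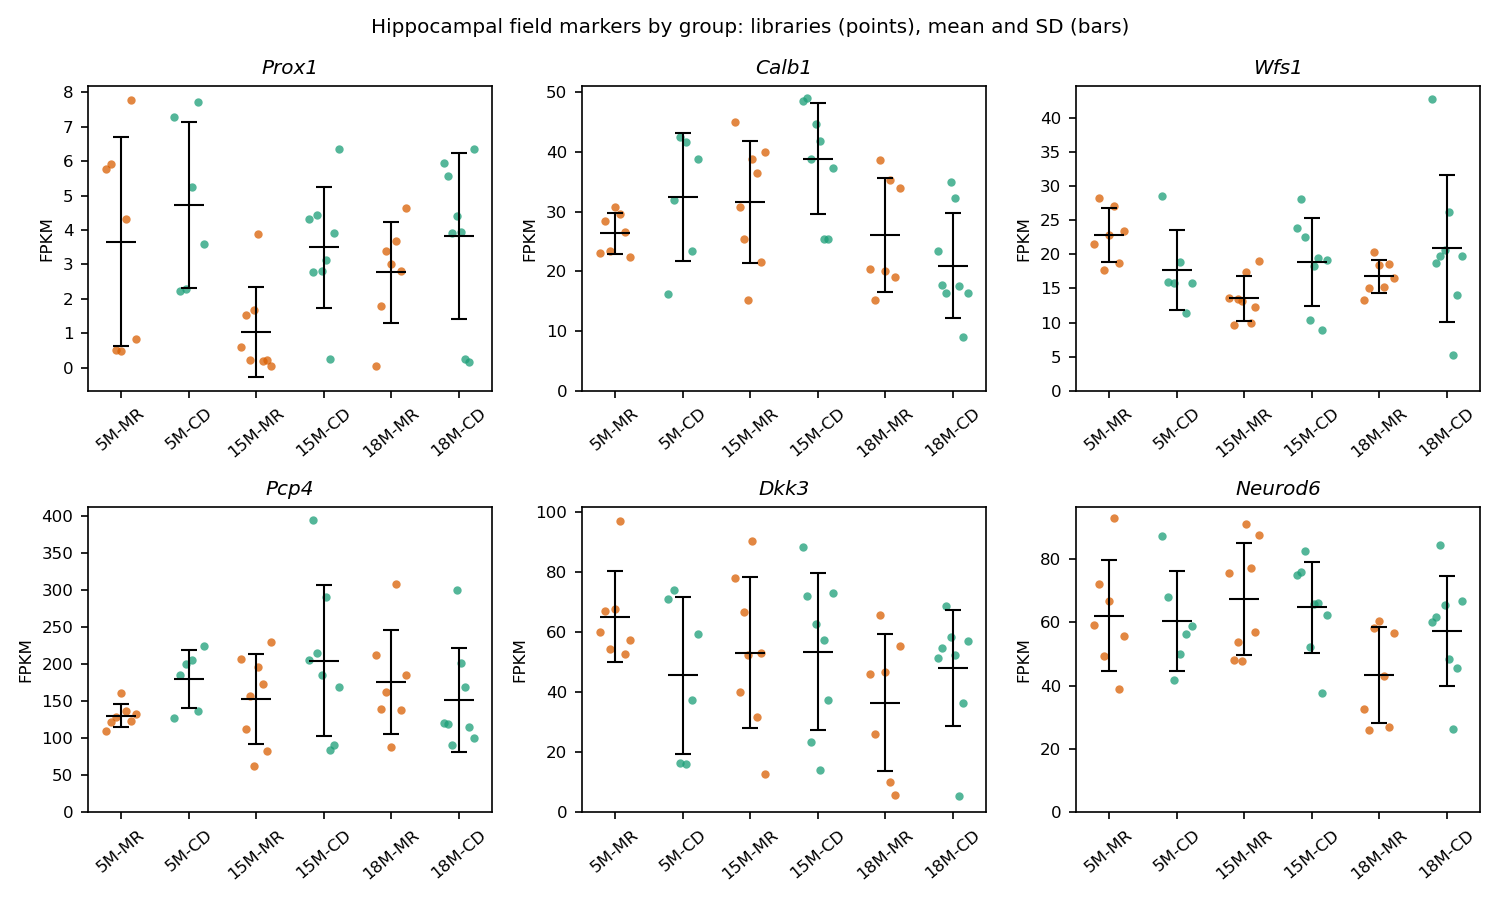
FPKM of the 6 field markers on the y axes in each library (points), by age and diet group on the x axes, with the group mean and SD as black bars. Prox1 was under 1 FPKM in 12 libraries, and most of the 15M-MR libraries sit below 2 FPKM while the other groups reach higher, with overlap between all groups.

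Prox1, the granule cell factor, lies on chromosome 1 (190118035 to 190170714, minus strand, GRCm38) and is overlapped by the antisense genes Gm28172 and Prox1os. Whether strand was used in the assembly is not stated, so that reads of the antisense genes cannot be told apart from its own. At 5 months its lowest, median and highest FPKM were 0.480, 4.33 and 7.78 in 5M-MR, against 2.24, 4.42 and 7.71 in 5M-CD. At 15 months they were 0.0468, 0.418 and 3.90 in 15M-MR, against 0.264, 3.52 and 6.35 in 15M-CD. At 18 months they were 0.0648, 3.001 and 4.64 in 18M-MR, against 0.163, 4.18 and 6.36 in 18M-CD. The 15M-MR libraries were the lowest as a group, and all ranges overlapped.

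In 12 libraries Prox1 was under 1 FPKM, the highest of them at 0.846, and the next library stood at 1.52 FPKM. The bound of 1 FPKM was set after the values were seen and serves as a description, since values just above it continue the run. These 12 were 3 of the 7 of 5M-MR, 0 of 6 of 5M-CD, 5 of 8 of 15M-MR, 1 of 8 of 15M-CD, 1 of 7 of 18M-MR and 2 of 8 of 18M-CD. By lane they were 0 of 8 on lane 1, 5 of 12 on lane 2, 1 of 12 on lane 3 and 6 of 12 on lane 4. The part of the lane in this was not tested. Within lane 4 the median was 0.418 FPKM in the 8 libraries of 15M-MR, against 3.91 FPKM in the 3 of 15M-CD. The group means, in falling order, were 4.73 ± 2.41 FPKM in 5M-CD (SD, n = 6), 3.82 ± 2.41 in 18M-CD (n = 8), 3.66 ± 3.03 in 5M-MR (n = 7), 3.50 ± 1.75 in 15M-CD (n = 8), 2.77 ± 1.47 in 18M-MR (n = 7) and 1.05 ± 1.31 in 15M-MR (n = 8). Of neighbours in this order only 18M-MR and 15M-MR lay further apart than their SDs.

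Calb1, the calbindin gene (chromosome 4, 15881264 to 15908064, plus strand), had its highest group mean in 15M-CD and its lowest in 18M-CD. At 5 months its lowest, median and highest FPKM were 22.4, 26.5 and 30.8 in 5M-MR, against 16.1, 35.3 and 42.4 in 5M-CD. At 15 months they were 15.2, 33.5 and 45.0 in 15M-MR, against 25.4, 40.3 and 49.005 in 15M-CD. At 18 months they were 15.2, 20.4 and 38.7 in 18M-MR, against 9.05, 17.6 and 34.9 in 18M-CD. The ranges of all groups overlapped. The means ran from 38.9 ± 9.29 FPKM in 15M-CD through 32.4 ± 10.7 in 5M-CD, 31.6 ± 10.2 in 15M-MR, 26.3 ± 3.43 in 5M-MR and 26.1 ± 9.52 in 18M-MR to 21.0 ± 8.72 in 18M-CD. Only the step between 15M-MR and 5M-MR was wider than the smaller of the 2 SDs.

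Wfs1, the CA1 marker (chromosome 5, 36966104 to 36989205, minus strand), was highest in 5M-MR. Its lowest, median and highest FPKM at 5 months were 17.7, 22.8 and 28.3 in 5M-MR, against 11.4, 15.9 and 28.6 in 5M-CD. At 15 months they were 9.61, 13.3 and 19.0 in 15M-MR, against 8.91, 19.3 and 28.1 in 15M-CD. At 18 months they were 13.4, 16.5 and 20.3 in 18M-MR, against 5.19, 19.7 and 42.8 in 18M-CD. The widest range was that of 18M-CD, which held both the lowest and the highest library of all 44. The means ran from 22.8 ± 3.95 FPKM in 5M-MR through 20.9 ± 10.8 in 18M-CD, 18.8 ± 6.47 in 15M-CD, 17.7 ± 5.84 in 5M-CD and 16.8 ± 2.42 in 18M-MR to 13.5 ± 3.27 in 15M-MR. Of these steps only the last exceeded the smaller SD.

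Pcp4, the calmodulin-binding peptide (chromosome 16, 96467606 to 96525793, plus strand), overlaps Igsf5 on the same strand, so that reads shared by both are uncertain. At 5 months its lowest, median and highest FPKM were 109.8, 128 and 161 in 5M-MR, against 127, 193 and 225 in 5M-CD. At 15 months they were 63.0, 165 and 230 in 15M-MR, against 84.2, 196 and 395 in 15M-CD. At 18 months they were 88.5, 162 and 308 in 18M-MR, against 90.5, 119.9 and 300.0 in 18M-CD. The 5M-MR libraries were the most even, with a coefficient of variation of 12.2%, against 22.1% to 49.9% in the other groups. The means ran from 205 ± 102 FPKM in 15M-CD through 179.8 ± 39.7 in 5M-CD, 176 ± 69.9 in 18M-MR, 153 ± 60.7 in 15M-MR and 152 ± 70.2 in 18M-CD to 130.5 ± 15.9 in 5M-MR, and only the last step exceeded the smaller SD.

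Dkk3, the Dickkopf family gene (chromosome 7, 112116017 to 112159057, minus strand), had a second set of low libraries. At 5 months its lowest, median and highest FPKM were 52.9, 60.1 and 97.0 in 5M-MR, against 16.1, 48.3 and 73.9 in 5M-CD. At 15 months they were 12.8, 52.7 and 90.6 in 15M-MR, against 14.1, 60.1 and 88.3 in 15M-CD. At 18 months they were 5.82, 46.1 and 65.6 in 18M-MR, against 5.44, 53.6 and 68.8 in 18M-CD. In 7 libraries Dkk3 was under 20 FPKM, the highest of them at 16.5, and the next library stood at 23.4 FPKM. That bound too was set after the values were seen. The 7 were 5M-CD 6, 5M-CD 8, 15M-MR 15, 15M-CD 6, 18M-MR 6, 18M-MR 7 and 18M-CD 7, spread over all 4 lanes. Of them 2, 15M-MR 15 and 18M-CD 7, were also among the 12 of 44 with Prox1 under 1 FPKM. The means ran from 65.2 ± 15.1 FPKM in 5M-MR through 53.5 ± 26.1 in 15M-CD, 53.2 ± 25.2 in 15M-MR, 48.1 ± 19.4 in 18M-CD and 45.7 ± 26.2 in 5M-CD to 36.6 ± 22.9 in 18M-MR, and every step was smaller than both SDs.

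Neurod6, the pyramidal neuron factor (chromosome 6, 55677822 to 55681263, minus strand), was the least variable marker. At 5 months its lowest, median and highest FPKM were 38.8, 59.1 and 93.0 in 5M-MR, against 41.7, 57.7 and 87.3 in 5M-CD. At 15 months they were 47.8, 66.4 and 91.2 in 15M-MR, against 37.8, 65.9 and 82.7 in 15M-CD. At 18 months they were 25.9, 43.1 and 60.5 in 18M-MR, against 26.4, 60.9 and 84.6 in 18M-CD. The 18M-MR libraries were the lowest as a group. The means ran from 67.3 ± 17.7 FPKM in 15M-MR through 64.7 ± 14.3 in 15M-CD, 62.1 ± 17.5 in 5M-MR, 60.4 ± 15.9 in 5M-CD and 57.4 ± 17.3 in 18M-CD to 43.5 ± 15.2 in 18M-MR, and every step was smaller than the SDs.

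The diet comparison asked whether the field markers differed between MR and CD mice of one age. None of the 6 passed limma's test, with Benjamini-Hochberg adjusted p under 0.05 over 13009 loci, at 5, 15 or 18 months or averaged over the ages. Of all loci 0% passed in each of these comparisons, and the interaction of diet with age likewise called 0 markers and 0% of loci (adjusted p of 0.987 for each marker). At an unadjusted p under 0.05 stood 4.61%, 2.27% and 4.69% of loci at 5, 15 and 18 months, 2.53% over the ages and 4.15% in the interaction. Prox1 was the 1 marker at that level in any of them. Its difference, on the log2(FPKM + 1) scale, was -1.20 at 15 months (SE 0.430, unadjusted p 0.00769, adjusted p 0.9996), with 7 of 8 libraries of 15M-MR below the mean of 15M-CD. Over the 3 ages it was -0.65 (SE 0.261, adjusted p 0.999). For so low a gene the size of the difference depends on the FPKM added before the log2. With 0.1 FPKM added, that of Prox1 at 15 months was -2.14 and did not pass either (limma adjusted p 0.9998). The other 5 markers differed by -0.40 to 0.05 between 15M-MR and 15M-CD. At 5 months the 6 differences lay between -0.53 for Prox1 and 0.72 for Dkk3, and at 18 months between -0.52 for Dkk3 and 0.33 for Calb1.

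The age comparison asked how the markers stood in 15 and 18 months old mice relative to 5 months. In mice labelled MR, 1 of 6 markers changed between 5 and 15 months, when 18.3% of loci passed (6.46% lower). Wfs1 fell, by 0.72 on the log2(FPKM + 1) scale (SE 0.240, limma adjusted p 0.0321). All 8 libraries of 15M-MR lay below the mean of 5M-MR, and 7 of them below its lowest library. Prox1 differed by -1.05 in this comparison (SE 0.445, adjusted p 0.0877), with 7 of 8 libraries below the mean of 5M-MR. The other 4 markers differed by -0.45 to 0.19.

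That call of Wfs1 was not firm. Between these 2 groups lane and age cannot be told apart, since no lane held both. In a fit over all libraries with lane as a factor, the difference of Wfs1 was -0.36 (limma adjusted p 0.690). On lane 4, Wfs1 stood at 9.61 to 19.0 FPKM in 15M-MR, against 8.91 to 19.4 FPKM in the 3 libraries of 15M-CD. The only library of mice of another age on that lane, 5M-CD 9, had 11.4 FPKM. The call was also lost without any 1 of 5M-MR 4, 5M-MR 6, 5M-MR 7, 15M-MR 3 or 15M-MR 7, with limma adjusted p of up to 0.0609.

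Between 5 and 18 months in MR mice, 0 of 6 markers passed limma's test while 29.3% of loci did. An unadjusted p under 0.05 was held by 2 markers, and by 42.5% of all loci. Neurod6 differed by -0.54 (SE 0.219, limma adjusted p 0.0589), with 7 of 7 libraries of 18M-MR below the mean of 5M-MR. Dkk3 differed by -1.16 (SE 0.486, limma adjusted p 0.0647), with 6 of 7 below that mean. Of the 7 libraries of 18M-MR, 3 were among those with over 8% of FPKM in loci with no symbol. Without all 6 such libraries the difference was -0.15 for Neurod6 (adjusted p 0.767) and -0.79 for Dkk3 (adjusted p 0.477). With lane as a factor Neurod6 differed by -0.96 and passed (adjusted p 0.0286). The groups 5M-MR and 18M-MR shared only lane 1, which held 1 library of 18M-MR, 18M-MR 2. That library had the lowest Neurod6 of all 44, at 25.9 FPKM. It also had the largest share of FPKM in loci with no symbol, at 12.003%.

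Between 15 and 18 months in MR mice, 0 of 6 markers and 0.131% of loci passed. An unadjusted p under 0.05 was held by 2 markers, and by 7.41% of all loci. Neurod6 differed by -0.65 (SE 0.212, limma adjusted p 0.339) and Prox1 by 0.94 (SE 0.445, adjusted p 0.648). All 7 libraries of 18M-MR had less Neurod6 than the mean of 15M-MR, and 6 of 7 had more Prox1.

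In mice labelled CD, the markers gave 0 calls by limma in the 3 pairs of ages. The loci that passed were 0.292% for 15 against 5 months, 0.231% for 18 against 5 and 0.0769% for 18 against 15. At an unadjusted p under 0.05 stood 0, 1 and 1 of the 6 markers, Calb1 each time. The shares of all loci at that level were 8.23%, 16.8% and 6.62%. Calb1 differed by -0.92 between 18M-CD and 15M-CD (SE 0.227, limma adjusted p 0.187). All 8 libraries of 18M-CD lay below the mean of 15M-CD, and 6 of them below its lowest. On lane 3, the only one that held both groups, it was 16.4 FPKM in the single library of 18M-CD, against 38.7 to 49.005 FPKM in 5 of 15M-CD. The GC correlation of a library, described below, was 0.14 in that library and -0.36 to -0.087 in those 5. Its part in this was not tested. Against 5M-CD the difference of Calb1 was -0.63 (SE 0.245, limma adjusted p 0.249). The array weights of limma are estimated from the spread of these same values around the fit. With them Calb1 passed in both comparisons, with limma adjusted p of 0.00560 and 0.0135. With lane as a factor it differed by -1.11 and -0.94 and passed in neither (limma adjusted p 0.999 and 0.475). No lane held both 18M-CD and 5M-CD, so that lane and age cannot be told apart between them.

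Averaged over the diets, 0 of 6 markers passed limma's test in the 3 pairs of ages, where 19.6%, 35.9% and 0.4% of loci did, for 15 against 5, 18 against 5 and 18 against 15 months. At an unadjusted p under 0.05 stood 1, 2 and 2 markers, beside 35.3%, 46.4% and 12.7% of all loci. Prox1 differed by -0.71 for 15 against 5 months (adjusted p 0.107). Calb1 differed by -0.36 and Neurod6 by -0.32 for 18 against 5 months (adjusted p 0.0996 and 0.102), and by -0.60 and -0.43 for 18 against 15 months (adjusted p 0.0901 and 0.209). Any difference among the 6 groups was called for 0 of 6 markers and for 12.7% of loci, with Calb1 the nearest at an adjusted p of 0.0514. Pcp4 was at an unadjusted p over 0.05 in every one of these limma comparisons.

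**Figure D2:**
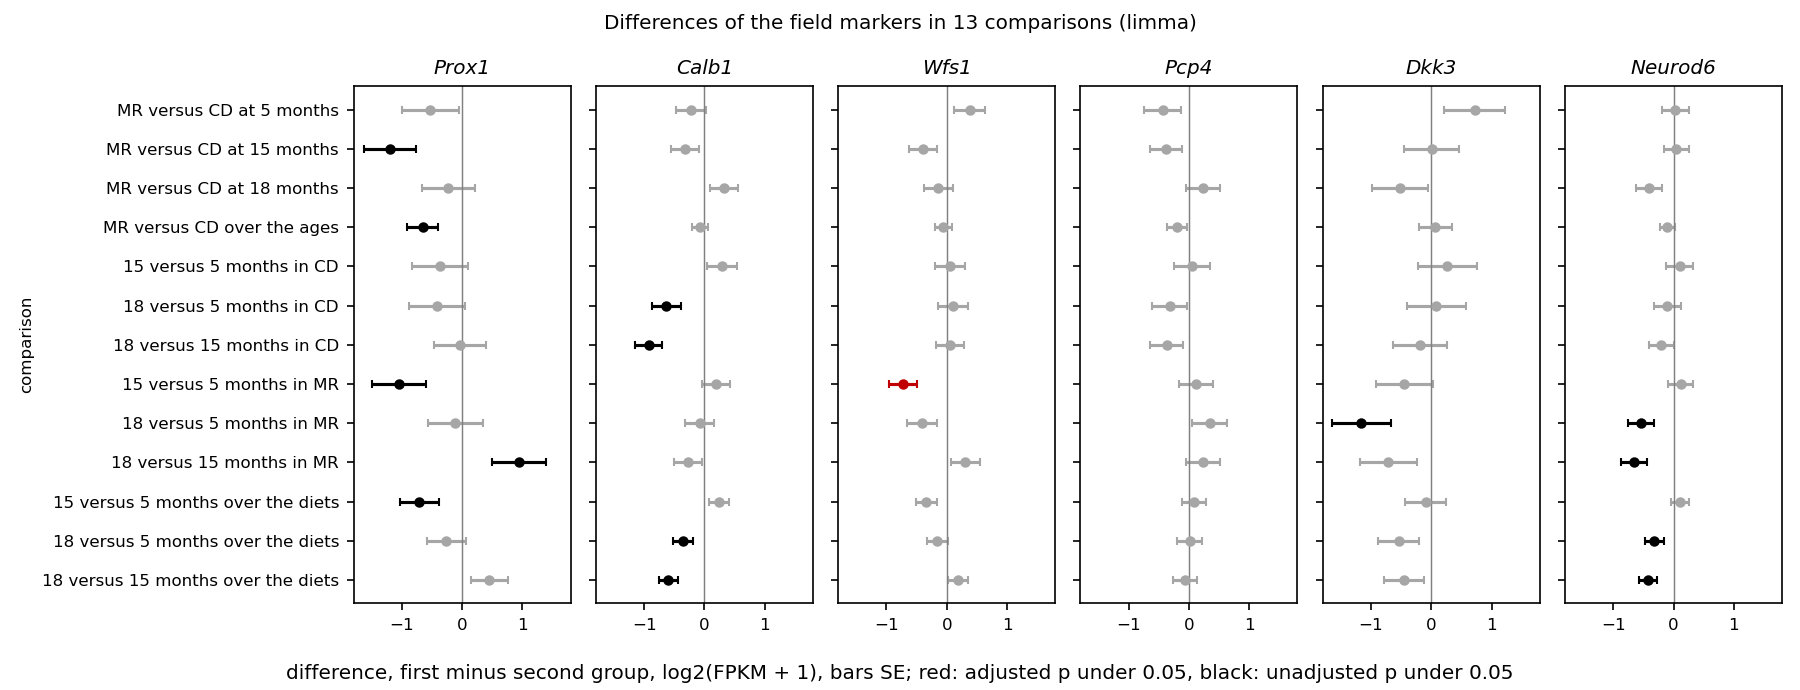
Differences of the 6 markers (points) with SE (bars) on the log2(FPKM + 1) scale on the x axes, first-named minus second-named group, in 13 comparisons on the y axis. The 1 red point, at -0.72, is Wfs1 for 15 against 5 months in MR mice; black points had an unadjusted p under 0.05 and did not pass the adjusted threshold.

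Deviations of each library from its group mean were compared between markers, to ask whether markers of one field moved together from piece to piece of dissected tissue. Of the 15 pairs of markers, 3 passed a 2-sided permutation test within groups, with 100000 resamples and p-values adjusted over the 15 pairs. All 3 were positive, and joined Calb1 to Pcp4, Wfs1 to Neurod6 and Dkk3 to Neurod6. Prox1 was joined to none. Of the 15 Pearson r 13 were above 0, and the lowest was -0.17, for Pcp4 and Dkk3.

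Calb1 and Pcp4, both calcium-related proteins, varied together most closely. Pearson r was 0.75 and Spearman rho 0.77 over 44 libraries (permutation p of 1e-05 each, the smallest that the resamples can give, adjusted to 0.00015 and 7.5e-05). Without the 2 libraries farthest from the median of Calb1 r was again 0.75. Within groups r lay between 0.53 and 0.95, and within lanes between 0.55 and 0.93, above 0 in 6 of 6 groups and 4 of 4 lanes.

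Wfs1 and Neurod6, of CA1 and of all pyramidal cells, had r of 0.64 and rho of 0.65 (permutation p 2e-05 and 1e-05, adjusted p 0.00015 and 7.5e-05). Without the 2 farthest libraries, 18M-CD 1 and 18M-CD 7, r was 0.60. It lay between 0.47 and 0.93 within groups and between 0.50 and 0.73 within lanes. Relative to the list of excitatory neurons described below, r of this pair was 0.42 (permutation adjusted p 0.026). Dkk3 and Neurod6 had r of 0.51 and rho of 0.57 (permutation p 0.00254 and 0.00025, adjusted p 0.0127 and 0.00125). This relation rested in part on 18M-MR 7 and 18M-CD 7, the lowest in Dkk3, without which r was 0.33. Without 18M-CD 7 alone r was 0.38 and the call was lost (adjusted p 0.146). It was -0.19 within 15M-MR and -0.06 within lane 4.

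Library 18M-CD 7 stood apart in several markers. It held the lowest Wfs1 and Dkk3 of all 44 libraries, at 5.19 and 5.44 FPKM, with Neurod6 at 26.4 and Prox1 at 0.246 FPKM. Pcp4 was 169 FPKM there, within the range of the others. The same library had the largest share of mitochondrial rRNA, at 12.5% of FPKM against a median of 6.49%, and Ttr at 3621 FPKM. Their part in its low markers was not tested.

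Prox1 was in none of the 3 pairs past the test. Its r was 0.38 with Wfs1 (adjusted p 0.0874, with 0.0274 to 0.296 when 1 library was left out), 0.32 with Neurod6 (adjusted p 0.117), 0.26 with Dkk3, 0.22 with Calb1 and -0.06 with Pcp4, over 44 libraries and by the same permutation test. With Calb1, the other marker of granule cells, r was 0.04 without the 2 farthest libraries. With Pcp4 r was -0.23 without the 2 farthest libraries, rho was -0.20 (adjusted p 0.290), and r lay between -0.72 in 5M-CD and 0.39 in 15M-CD within groups. With no group means removed, r of Prox1 with Wfs1 was 0.44 and passed (adjusted p 0.00791).

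**Figure D3:**
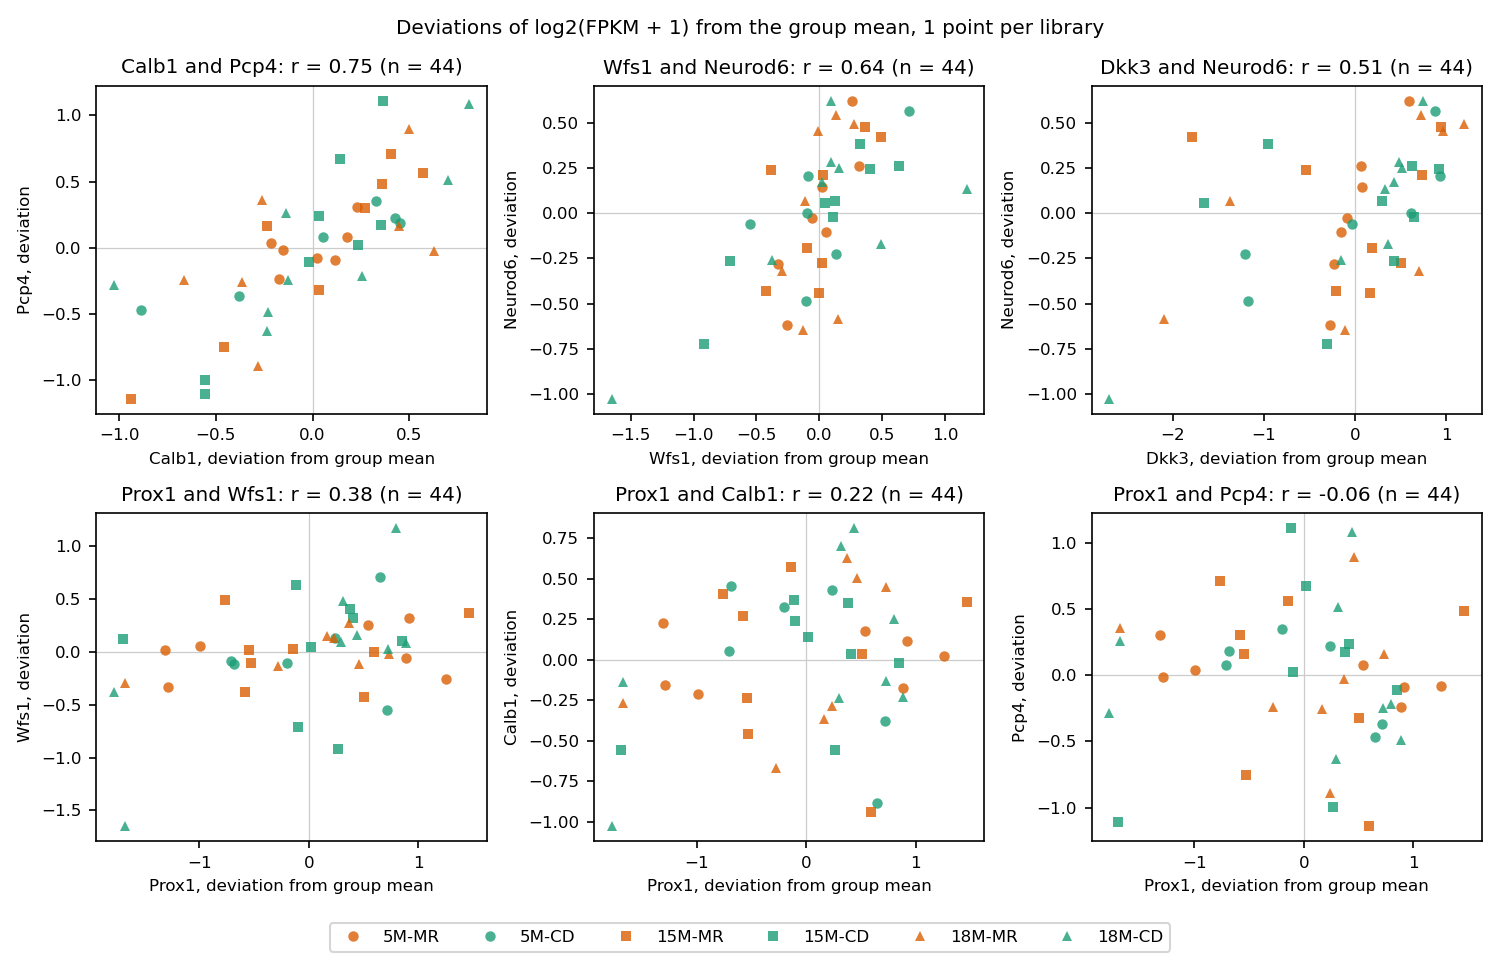
Deviations of log2(FPKM + 1) from the group mean for 6 pairs of markers, 1 point per library (n = 44), with colour for diet and symbol for age. Calb1 and Pcp4 (r = 0.75) and Wfs1 and Neurod6 (r = 0.64) lie along a rising line, and the panels with Prox1 show no such line for Calb1 (0.22) or Pcp4 (-0.06).

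Each marker was then set against 18 lists of marker genes and 6 measures of the library, each list as the mean centred log2(FPKM + 1) of its measured genes without the markers themselves. The GC and length correlations of the library, described below, were among the 6 measures and were added after the values were seen. Of the 144 relations 34 passed the permutation test of Pearson r adjusted over all 144. The adjusted p below are those of r unless rho is named. Prox1 followed the dentate granule cell list of 16 measured genes, with r of 0.50 (adjusted p 0.0104), and was above 0 with 14 of its 16 genes. Its rho of 0.34 did not pass (adjusted p 0.0859), and r was above 0 in 4 of 6 groups, with -0.34 the lowest. Its call with the dentate list was kept in 2 of 4 alternative runs. Wfs1 and Neurod6 were likewise above 0 with 14 of the 16 dentate genes. With the CA1 list r of Prox1 was 0.02. With the CA3 list it was 0.31 (adjusted p 0.128; rho 0.35, adjusted p 0.0701), above 0 in 5 of 6 groups. Prox1 also followed the list of excitatory neurons of all fields, with r of 0.59 (adjusted p 0.00209; rho 0.55, adjusted p 0.00458), above 0 in 6 of 6 groups.

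Wfs1 and Neurod6 followed the same broad list of excitatory neurons, with r of 0.61 and 0.63 (adjusted p 0.00916 and 0.000960), as did Dkk3 with 0.51 (adjusted p 0.0222). Without 18M-CD 7 alone, r was 0.35 for Wfs1 (adjusted p 0.0898) and 0.29 for Dkk3 (adjusted p 0.182), so that both calls were lost. That of Neurod6 passed with any 1 library left out, at r of 0.52 to 0.68. Wfs1 had r of 0.48 with the CA1 list (adjusted p 0.0161) and of 0.54 with the dentate list (adjusted p 0.00916). The first was lost without 15M-CD 8 or 18M-CD 7, with r of 0.36 at the lowest, and its rho of 0.37 did not pass (adjusted p 0.0706). Neurod6 had r of 0.55 with the CA2 list, 0.50 with the CA3 list and 0.49 with the dentate list (adjusted p 0.00288, 0.0106 and 0.0133). Dkk3 passed with none of the 4 field lists, where its r lay at 0.17 to 0.30. With the dentate list both Wfs1 and Neurod6 missed the threshold without 18M-CD 7, at r of 0.40 and 0.38 (adjusted p 0.0583 and 0.0696). Neurod6 also had r of 0.48 with 4 measured thalamus markers (adjusted p 0.0165).

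Calb1 and Pcp4 shared another set, though Calb1 also passed with lists that some of the other 4 markers followed. With 8 genes of the neuronal bHLH and Prox family r was 0.52 for Calb1 and 0.63 for Wfs1 (adjusted p 0.00916 and 0.000960). For Neurod6 and Prox1 it was 0.53 and 0.43 (adjusted p 0.00528 and 0.0432). With 9 genes of endoplasmic reticulum calcium and stress r was 0.44 for Calb1 and 0.49 for Wfs1 (adjusted p 0.0288 and 0.0196). In 4 alternative runs the call of Prox1 with the first of these lists was kept in 1, and so was each call with the second. Calb1 had r of 0.54 with the CA1 list (adjusted p 0.00916) and 0.40 with the dentate list, which did not pass. Neither followed the list of excitatory neurons, with r of 0.06 for Calb1 and -0.21 for Pcp4. Both followed 10 interneuron markers, with r of 0.70 and 0.60 (adjusted p 0.000864 and 0.000960), and 13 genes of EF-hand buffers and calmodulin-binding peptides, with 0.51 and 0.49 (adjusted p 0.00288 and 0.0104). Pcp4 passed with none of the 4 field lists, CA2 included (r = 0.20). It had r of 0.43 with the choroid plexus list and 0.40 with log2 Ttr (adjusted p 0.00916 and 0.0174), and 0.60 with the share of mitochondrial rRNA (adjusted p 0.000864). The relation with Ttr missed the threshold without 15M-CD 2 or 18M-MR 6 (adjusted p of up to 0.0590).

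The 4 field lists, taken against each other, gave 1 of 6 relations past the test, CA2 with CA3 (r = 0.51, rho 0.42, permutation p adjusted over the 6 pairs 0.0233). It was 0.34 without 2 libraries. The dentate list had r of 0.13 with CA1, 0.35 with CA2 and 0.06 with CA3 (adjusted p of 0.109 or more), and no r between the lists was below 0.

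**Figure D4:**
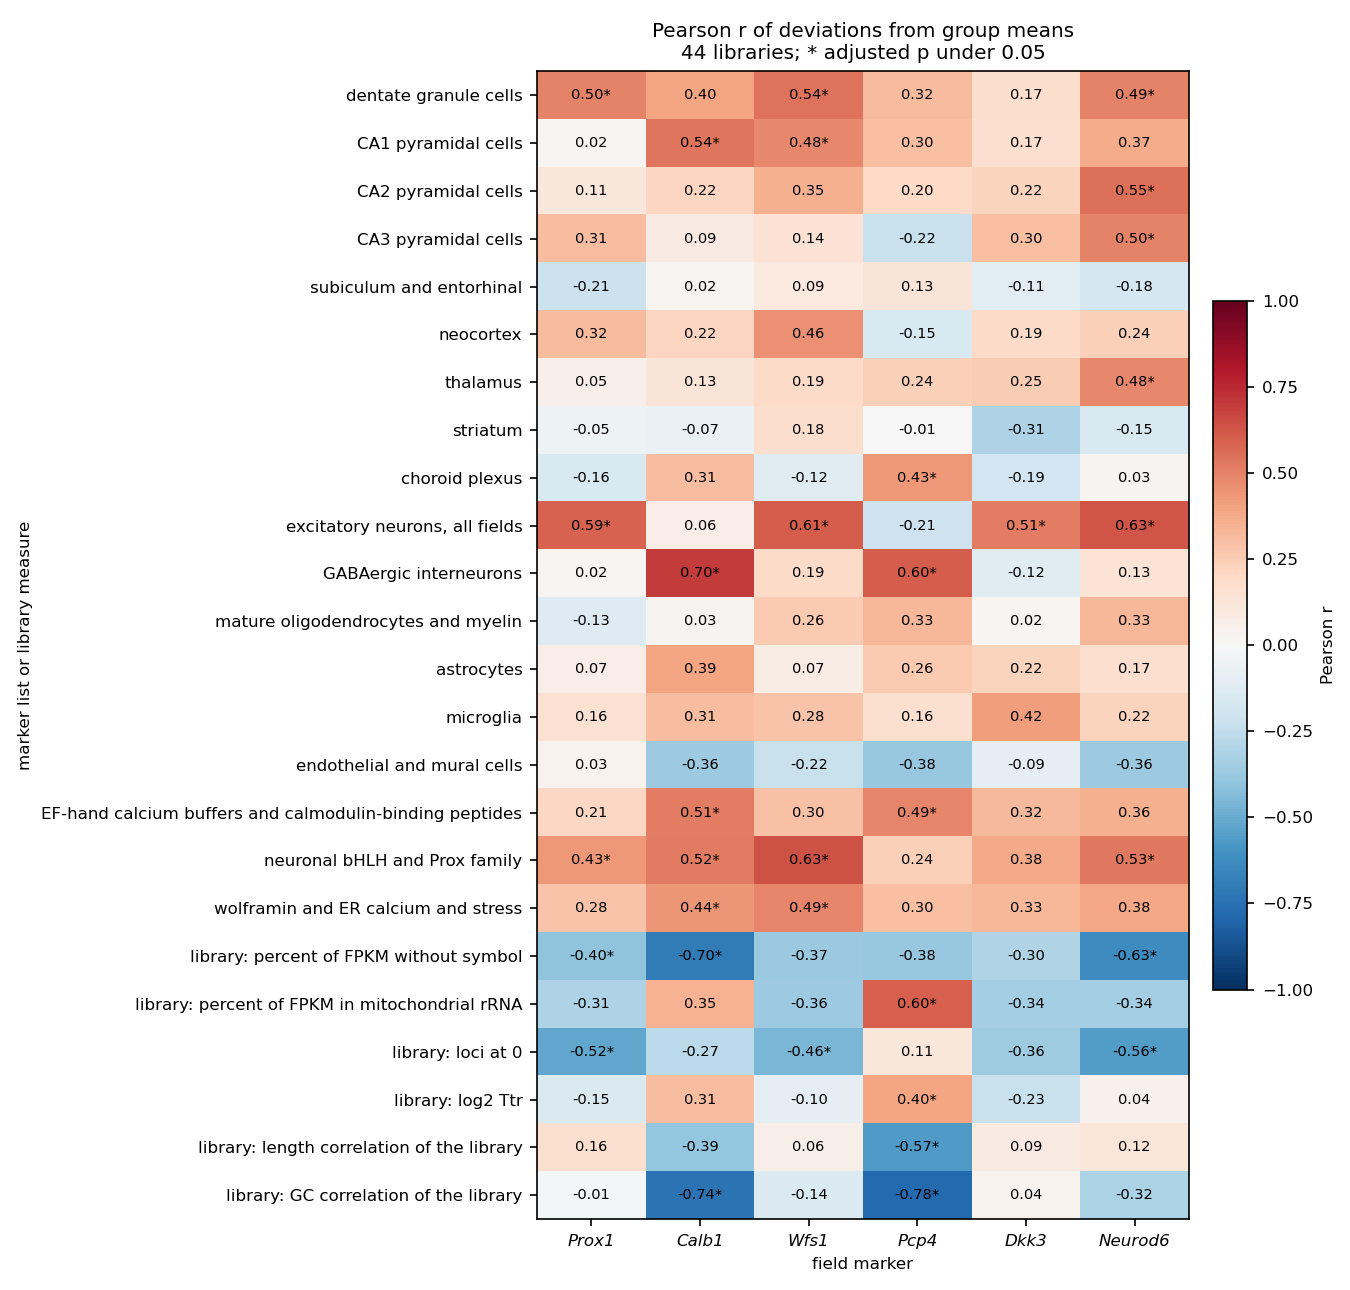
Pearson r over 44 libraries between the deviations of each marker (x axis) and of each marker list or library measure (y axis), with colour for r from -1 to 1 and a star for adjusted p under 0.05. Prox1, Wfs1, Dkk3 and Neurod6 share stars with excitatory neurons, whereas Calb1 and Pcp4 share them with interneurons and with the GC correlation of the library. Calb1 also has a star with the neuronal bHLH and Prox family, as do Prox1, Wfs1 and Neurod6.

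The share of FPKM in loci with no symbol and the number of loci at 0 moved with several markers. The share of loci with no symbol had r of -0.70 with Calb1, -0.63 with Neurod6 and -0.40 with Prox1. The number of loci at 0 had r of -0.56 with Neurod6, -0.52 with Prox1 and -0.46 with Wfs1 (adjusted p of 0.0288 or less for each of the 6). That of Prox1 with the share was lost on leaving out 18M-MR 8, or 15M-CD 7, or either of 18M-CD 7 and 18M-CD 8 (adjusted p of up to 0.0936), and that of Wfs1 without 18M-CD 7 (adjusted p 0.0722). Without the 6 libraries with over 8% of FPKM in loci with no symbol, the 3 pairs of markers passed again by the permutation test. Then r was 0.79 for Calb1 and Pcp4, 0.71 for Wfs1 and Neurod6 and 0.51 for Dkk3 and Neurod6 (adjusted p 0.0003, 0.000525 and 0.030). The part of these measures in the relations between markers was otherwise not tested.

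A measure added after the values were seen had larger r with Calb1 and Pcp4 than any list. For each library, the deviations of all loci with a known transcript from their means over the libraries were correlated with the GC content of the transcript, and likewise with its length. This GC correlation ran from -0.36 to 0.45 over the libraries. Its r was -0.74 with Calb1 and -0.78 with Pcp4 (rho -0.78 and -0.79, permutation p 1e-05, adjusted p 0.000480 each), and -0.32 to 0.04 with the other 4 markers. Within lanes it lay between -0.87 and -0.67 for Calb1 and between -0.94 and -0.57 for Pcp4. The length correlation had r of -0.57 with Pcp4 (rho -0.60, adjusted p 0.00187 and 0.00126), and -0.62 to -0.57 within lanes. With Calb1 its r of -0.39 did not pass (adjusted p 0.0613), though its rho of -0.41 did (adjusted p 0.0367). Once the GC and length correlations were removed together, not singly, Calb1 and Pcp4 had r of 0.35 (adjusted p 0.0635). Wfs1 and Neurod6 then had r of 0.63 (adjusted p 0.000300) and Dkk3 and Neurod6 0.54 (adjusted p 0.00375).

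The transcripts themselves differ in these features. That of Calb1 has 36.8% GC, lower than all but 0.390% of the 8707 loci with a known transcript, whose median is 50.8%. That of Pcp4 is 641 bases long, and 3.56% of loci have a shorter one. Neurod6 has 41.9% GC, Prox1 45.3%, Dkk3 51.0% and Wfs1 57.8%. The 200 loci most like Calb1 had a median of 44.1% GC, against 53.8% in the 200 least like it, and for Pcp4 the medians were 44.6% and 57.6%. For Wfs1 they were 51.1% and 50.9%.

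**Figure D5:**
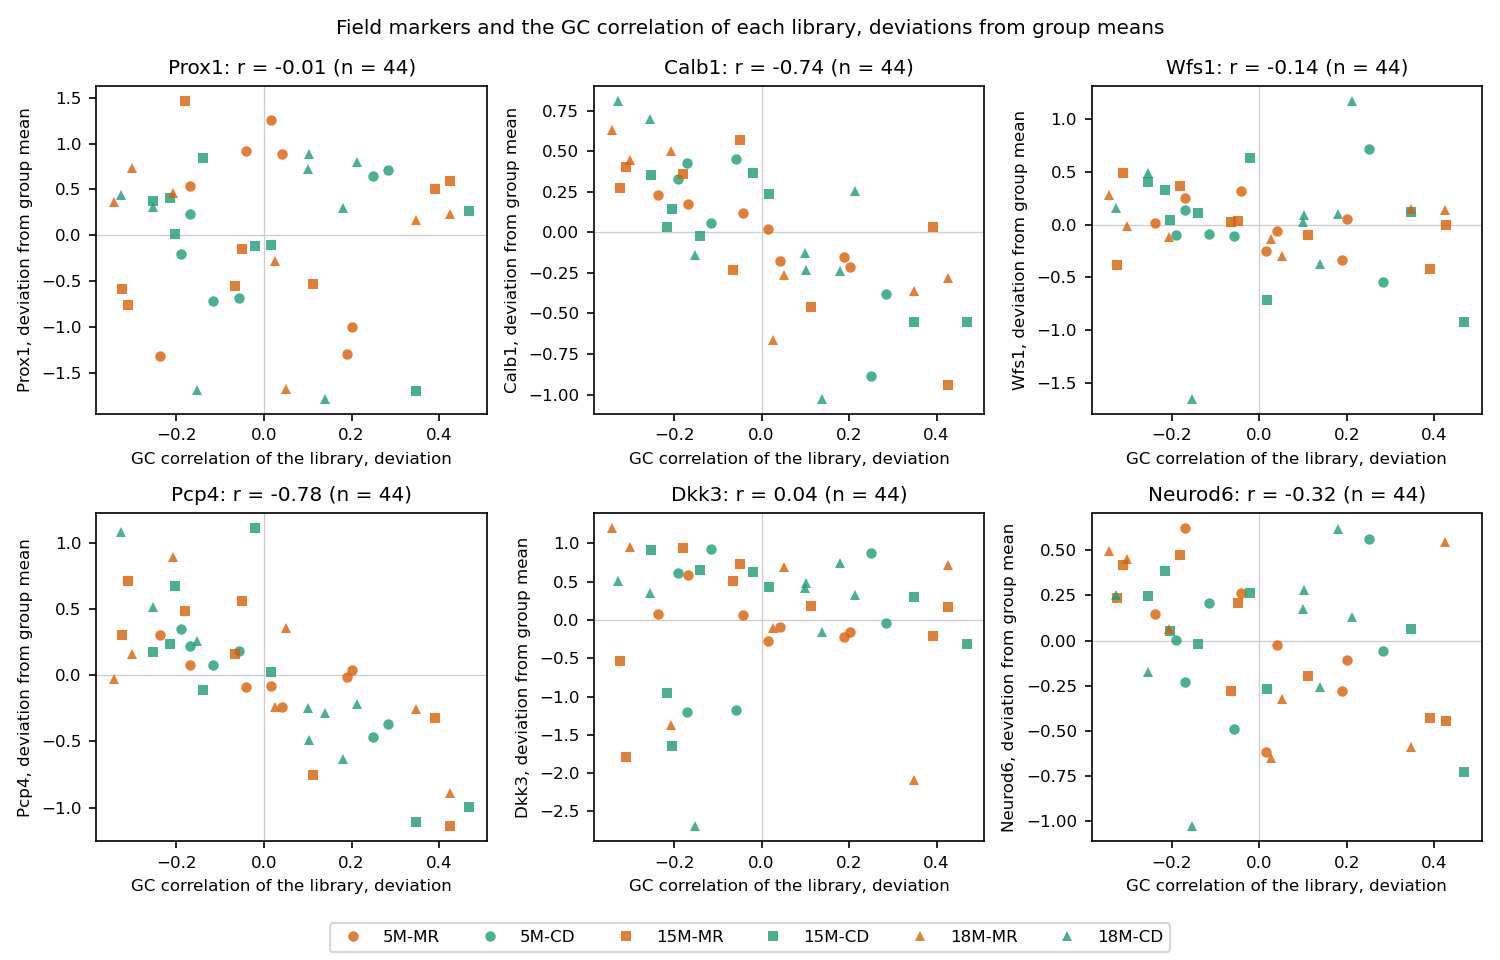
Deviation of each marker from its group mean (y axes, log2(FPKM + 1)) against the deviation of the GC correlation of the library (x axes, Spearman rho), 1 point per library, with colour for diet and symbol for age. Calb1 and Pcp4 fall along the x axis (r = -0.74 and -0.78), and Prox1 and Dkk3 do not (-0.01 and 0.04).

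The loci most and least like each marker, by Pearson r of deviations over 44 libraries, are named here as a description with no test. Only loci with 1 gene symbol that is no clone or predicted name were taken, so that loci passed over can lie closer or further. For Wfs1 they were Plk2, a polo-like kinase induced by neuronal activity, at 0.83, Sertad4 at 0.80 and Egr1, an immediate early transcription factor, at 0.79, and Chchd7 was the least alike at -0.62. For Neurod6 they were Stim2, a calcium sensor of the endoplasmic reticulum, at 0.88, Rasd1, a Ras-related protein, at 0.86 and Prkca, protein kinase C alpha, at 0.85, with Cdh13, a cadherin, the least alike at -0.72. For Calb1 they were Snrpd3, a spliceosome protein, at 0.89, Mrpl50, of the mitochondrial ribosome, at 0.89 and Psmd14, of the proteasome, at 0.89. The least like it was Scrt1, a neuronal zinc finger factor, at -0.86. For Pcp4 they were H3f3a-ps1 at 0.89, a pseudogene whose reads may be those of its parent, Uqcrb, of respiratory complex III, at 0.89 and H3f3a, a histone H3.3 gene, at 0.88, with the ion channel gene Hcn2 the least alike at -0.86.

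Likeness was weaker for the other 2 markers. For Dkk3 the nearest were Cstf1, of the cleavage stimulation factor, at 0.66, Fam134a at 0.66 and Cuedc2 at 0.66, and Sltm was the least alike of the named loci at -0.59. For Prox1 they were the phosphatase gene Ptpre at 0.61, the lamin gene Lmnb2 at 0.59 and Scaper at 0.58, with the complement regulator Cd59a the least alike at -0.57. Among 13008 other loci, Neurod6 ranked 64 in likeness to Wfs1, and Pcp4 ranked 451 in likeness to Calb1. Neurod6 ranked 183 for Dkk3. Seen from the other marker, Wfs1 ranked 345 and Dkk3 ranked 1217 in likeness to Neurod6, and Calb1 ranked 187 in likeness to Pcp4. Loci with r over 0.5 made up 9.66% for Neurod6, 13.4% for Calb1, 10.2% for Pcp4, 3.54% for Wfs1 and 1.51% for Dkk3. In likeness to Prox1 the nearest marker, Wfs1, ranked 643.

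Other genes of the same fields gave a few calls with age in mice labelled MR. At 18 against 5 months, 2 of 16 dentate genes, 2 of 11 CA1 genes, 2 of 10 CA2 genes and 4 of 12 CA3 genes were lower by limma and 0 were higher, when 14% of all loci were lower. Their median differences were -0.38, -0.14, -0.29 and -0.41 on the log2(FPKM + 1) scale, beside -0.09 over all loci. In the list of excitatory neurons of all fields, 4 of 13 genes were lower (Chn1, Camk2a, Nptx1 and Slc17a7, at -1.67 to -0.63), with a median of -0.44. Of other cell types, 2 of 8 microglia genes were higher (C1qa at 0.47 and C1qb at 0.52), and of 9 astrocyte genes S100b was higher at 0.87 and Slc1a2 and Fgfr3 lower at -1.04 and -0.46. Of 5 endothelial and mural genes Slco1a4 was lower, at -0.73. For myelin 0 of 11 genes passed, and for choroid plexus 0 of 7. Their part in the field genes' differences was not tested. The dentate genes were Sema5a, a semaphorin, at -0.95 (SE 0.263, adjusted p 0.0112) and Dsp, desmoplakin, at -0.82 (adjusted p 0.0253). Sema5a averaged 3.25 ± 1.35 FPKM in 18M-MR and 7.03 ± 2.08 FPKM in 5M-MR (SD, n = 7 each), and Dsp averaged 1.59 ± 0.673 FPKM in 18M-MR and 3.58 ± 1.36 FPKM in 5M-MR.

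The CA1 genes were Fibcd1, a receptor of acetylated sugars, at -0.81 (SE 0.211, limma adjusted p 0.00882) and Nr3c2, the mineralocorticoid receptor, at -1.55 (adjusted p 0.00899). Nr3c2 averaged 6.09 ± 4.92 FPKM in 18M-MR, with a library listed at 0, against 14.002 ± 2.90 FPKM in 5M-MR. The CA2 genes were Rgs14, a regulator of G protein signalling, at -0.79 (limma adjusted p 0.0155) and Cacng5, a subunit that joins AMPA receptors, at -1.46 (adjusted p 0.0122). The CA3 genes were the copine Cpne4 at -0.85, Homer3, a scaffold of the synapse, at -0.79, Bok, of the Bcl-2 family, at -0.76 and Chgb, a granin, at -0.69 (limma adjusted p of 0.0163 to 0.0419). Without the 6 libraries with over 8% of FPKM in loci with no symbol, 0 genes of each of the 4 lists passed. The share of all loci that passed in that run is not given here.

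Between 5 and 15 months in MR mice, limma called 1 of 16 dentate genes, 0 of 11 CA1 genes, 2 of 10 CA2 genes and 0 of 12 CA3 genes, all 3 lower, when 6.46% of loci were lower. The CA3 list had a median of 0.17, beside 0.01 over all loci. They were Sema5a at -0.72 (adjusted p 0.0432), Cacng5 at -1.63 (adjusted p 0.00704) and Ntf3, neurotrophin 3, at -0.77 (adjusted p 0.0284). With lane as a factor 0 of the dentate and 0 of the CA2 genes passed, in a run whose share of all loci called is not given here. Averaged over the diets, 4 dentate, 4 CA1, 3 CA2 and 2 CA3 genes were lower at 18 against 5 months and 0 higher, beside 17.1% of loci lower. The dentate genes were Sema5a, Dsp, C1ql3 and Npy1r, the CA1 genes Fibcd1, Mpped1, Gpr161 and Nr3c2, the CA2 genes Rgs14, Ntf3 and Gsto1, and the CA3 genes Cpne4 and Homer3, with differences of -0.85 to -0.23. For 15 against 5 months over the diets Npy1r, Ncald and Ntf3 were lower, at -0.43, -0.80 and -0.54, beside 6.93% of loci. In each comparison of MR with CD, 0 of these field genes passed, as 0% of all loci did.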

How the data were processed

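Total RNA of mouse hippocampus was sequenced by the BGI-500 protocol, per the labels' protocols. The authors deposited 1 table of 44 libraries, in FPKM. Per the submitters' processing notes, Trimmomatic 0.38, HISAT2 and StringTie 1.3.4d were used with the mouse genome GRCm38.p6. The annotation, the choice of loci, strandedness and any scaling between libraries are not given in the sources used here, and read depth is unknown.

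Loci with at least 1 FPKM in 6 libraries (13009 of 13218) were fitted as log2(FPKM + 1) in limma 3.58.1 (R 4.3.3) with 6 group means and a prior variance trend. The threshold was a 2-sided p of 0.05 after Benjamini-Hochberg adjustment over all loci of a comparison. Co-variation used deviations from group means (SciPy 1.17.1, NumPy 2.4.6 and pandas 2.3.3 in Python 3.11.15), permuted within groups. Scripts were tested on simulated data. Positions and transcripts are those of GENCODE M21, promoters those of RefSeq, and matplotlib 3.10.9 drew the plots. The members, lists and rules were chosen with earlier results of these data known. The rule names the 6 markers, the 3 loci most and the 1 least like each, list members past the test in a printed comparison and Ttr. List counts are printed for the 4 field lists and, for 18 against 5 months in MR, for markers of other cell types, of which the interneuron counts are not reported here.

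No 2 of the 946 pairs of libraries were identical. Numbers in the titles were tested as pairs. Over the 81 pairs of equal number the deviations correlated at a median of 0.02, with 14 over 0.1. Pairs of unequal number were not compared, so this cannot say whether the numbers pair samples. No pairing was used in the main fits.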

Additional observations from a re-analysis of the deposited data

Results flagged for a closer look

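A gap test within each group, run on the 6 markers in 6 groups, singled out 2 of 36 sets, where chance gives about 1 in 20. Prox1 was 3.90 FPKM in 15M-MR 6, and the next library of that group stood at 1.67 FPKM. That library also had 91.2 FPKM of Neurod6, the highest of its group. Dkk3 was 97.0 FPKM in 5M-MR 7, and the next library of that group stood at 67.7 FPKM. The same library had the highest Neurod6 of all, at 93.0 FPKM.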

How the results depend on the processing

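With 6 markers, 13 differences, an interaction and a test of any difference, most counts of markers called were 0 under each alternative run. With array weights 1 was called for 18 against 5 and for 18 against 15 months in CD, and for 18 against 15 months over the diets (Calb1 each time). They gave 2 for 15 against 5 months in MR and 4 for any difference. With lane as a factor 0 were called for 15 against 5 months in MR, 1 for 18 against 5 months in MR, 2 for 18 against 5 months over the diets and 1 for any difference. The alternatives in the next 2 sentences were chosen after seeing the data. Without the libraries with over 8% of FPKM in loci with no symbol, 2 were called for 15 against 5 months in MR and 2 for any difference. With the length correlation of the library as a covariate the counts were 0 for 15 against 5 months in MR and 1 for 18 against 5 months over the diets. Leaving out 1 library at a time gave 0 to 2 markers for 15 and for 18 against 5 months in MR, and 0 to 1 for 18 against 5 and 18 against 15 months over the diets and for any difference. The cause was not tested. The shares of all loci called under these alternative runs are not given here, so that the counts stand without that background.

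The numbers in the titles were also fitted as a block, though the check above cannot say whether they pair the samples. With a replicate block Wfs1 differed by -0.81 for 15 against 5 months in MR (limma adjusted p 0.0450), and no marker call changed.

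Counts of field genes moved more. Between 18 and 5 months in MR the counts were 2 dentate, 2 CA1, 2 CA2 and 4 CA3 genes. Over the 10 alternatives other than single libraries left out, they were 0 to 2, 0 to 2, 0 to 3 and 0 to 4, and with 1 library left out 1 to 3, 2 to 3, 1 to 3 and 0 to 4. Over the diets, counts of 4, 4, 3 and 2 became 0 to 4, 0 to 4, 0 to 5 and 0 to 4 under those alternatives. For 15 against 5 months in MR the dentate count of 1 became 0 to 4 and the CA2 count of 2 became 0 to 2. For these counts too the shares of all loci called are not given.

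Of the 15 pairs, 6 passed with no group means removed, and 2 to 5 when 1 library was left out. Some small r changed sign. Prox1 with Calb1 was -0.023 without the libraries over 8%, Prox1 with Pcp4 0.030 with no group means removed and Prox1 with Neurod6 -0.066 relative to the excitatory neuron list. Calb1 with Dkk3 was -0.10 after quantile normalization, -0.13 relative to that list and -0.044 without the libraries over 8%, and -0.029 to 0.086 with 1 library left out. Dkk3 with Neurod6 missed the threshold after quantile normalization (r = 0.43, adjusted p 0.0535) and relative to the excitatory list (r = 0.27, adjusted p 0.381). Relative to that list r was 0.42 for Wfs1 with Neurod6, 0.059 for Prox1 with Wfs1 and 0.83 for Calb1 with Pcp4. Depth is unknown, so low values of Prox1 carry no counting interval.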
